A study of Mus musculus with 18 samples.

Results

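The list described here holds 39 interferon-stimulated genes (ISGs), the genes that cells switch on when they receive type I interferon. They were found by gene symbol among the 55573 genes of the deposited count table, and all 39 were present. The list was drawn up with earlier results of these data known, in which interferon-inducible genes stood higher in some F2/metestrus samples than elsewhere. The levels and tests below are therefore descriptions of the chosen genes and not independent evidence that this group of genes moves.

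RNA was sequenced from the ipsilateral dorsal horn of the spinal cord (DHSC, segments L3 to L5) of adult wild-type C57BL/6J mice aged 8 to 12 weeks, 2 h after 2% formalin, dosed at 8 µL for every 20 g that a mouse weighed, was injected under the skin of a hind paw. The 18 samples were 6 from males, 6 from F1/proestrus females and 6 from F2/metestrus females. F1 and F2 name the short and the long quiet interval that females showed between both phases of pain behavior, and the cycle stage was read from vaginal smears after the behavioral test. Every group had received formalin and no sample came from an uninjected mouse, so the files do not show how far any of these genes was induced by formalin. Behavior and cycle stage were joined in the female groups and cannot be told apart. The methods call the samples biological replicates and say that the figure legends give the number of tested animals. The labels do not tie each sample to a separate animal, so the p-values measure the spread between these samples.

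Type I interferons, interferon-alpha and interferon-beta, bind the receptor pair IFNAR1 and IFNAR2. The receptor's kinases JAK1 and TYK2 then phosphorylate STAT proteins, and STAT2 and IRF9 are parts of the complex ISGF3 that forms. ISGF3 binds the interferon-stimulated response element (ISRE) in the promoters of ISGs, whose products sense or block viral RNA and protein synthesis and also feed back on the pathway. In the central nervous system, microglia, endothelium, astrocytes and neurons can all respond to interferon, and a low basal level of many ISGs is present without infection. Interferon-gamma acts through another receptor and drives a partly shared set of genes.

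Library totals ran from 73590509 to 125724156 counts, so that 3 counts corresponded to at most 0.0399 CPM. CPM is the count of a gene per 1000000 counts of its library, here on library sizes scaled by the trimmed mean of M-values (TMM). Levels of different genes are compared only per kilobase of exon. Xist was at 0.0163 to 0.0989 CPM in the males and 8.68 to 17.8 CPM in the females, so every library matched its labelled sex. All 8 dorsal horn neuron markers were detected, and motor neuron markers, which belong to the ventral horn, summed to 12.1 to 70.5 CPM over the 18 samples. The library numbers in the table header form 2 series, the first holding replicates 1 to 3 and the second replicates 4 to 6 of every group. In bulk tissue, fewer cells of a type cannot be told apart from less RNA per cell.

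Across the DHSC the ISGs were expressed over a wide range of levels. Per kilobase of exon, *Ifitm3*, whose product stops viruses from fusing in endosomes, was highest at 38.2 CPM per kilobase, followed by *Ifi27* (24.0), the nucleotide kinase gene *Cmpk2* (12.3) and *Lgals3bp*, which encodes a secreted glycoprotein (9.91). The lowest were *Mx1* (0.0330 CPM per kilobase), a dynamin-like GTPase gene that carries a deletion in most laboratory strains, and *Oas3* (0.00852 CPM per kilobase). *Oas3* had no read in F1/proestrus samples 3 and 4 and at most 26 counts in any sample. It did not pass the filter on low counts, so that 38 of the 39 genes were tested.

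The most abundant ISGs barely separated the groups. *Ifitm3* lay at 21.0 to 30.1 CPM (median 26.7) in males, 21.1 to 28.8 CPM (median 22.6) in F1/proestrus and 21.0 to 34.4 CPM (median 25.1) in F2/metestrus, and the 3 ranges overlapped almost wholly. *Ifi27* spanned 29.2 to 37.99 CPM (median 33.7) in males, 25.7 to 48.2 CPM (median 33.1) in F1/proestrus and 33.1 to 43.2 CPM (median 35.5) in F2/metestrus. *Cmpk2* varied least of the 38 tested genes, by 1.34 times between its lowest and highest sample. It measured 45.2 to 51.5 CPM (median 49.2) in males, 46.4 to 55.8 CPM (median 51.3) in F1/proestrus and 48.3 to 60.5 CPM (median 52.5) in F2/metestrus. *Lgals3bp* was found at 22.1 to 29.1 CPM (median 26.5) in males, 22.5 to 39.6 CPM (median 27.5) in F1/proestrus and 24.6 to 34.1 CPM (median 28.9) in F2/metestrus. For *Ifi27* and *Lgals3bp* the highest of all samples was F1/proestrus sample 5, and for *Ifitm3* and *Cmpk2* it was F2/metestrus sample 5.

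At the other end, *Mx1* was counted at 0.0266 to 0.219 CPM (median 0.112) in males, 0.0217 to 0.327 CPM (median 0.0892) in F1/proestrus and 0.0436 to 0.153 CPM (median 0.140) in F2/metestrus, with 2 counts in its lowest library. *Oas3* reached 0.00840 to 0.234 CPM (median 0.0458) in males, 0 to 0.0702 CPM (median 0.0324) in F1/proestrus and 0.00891 to 0.203 CPM (median 0.0654) in F2/metestrus. *Oas3* was not tested, since it did not pass the filter. The log2 fold change of *Mx1* was -0.08 ± 0.52 in F2/metestrus against F1/proestrus. In males it was -0.19 ± 0.55 against F1/proestrus and -0.11 ± 0.40 against F2/metestrus.

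**Figure D1:**
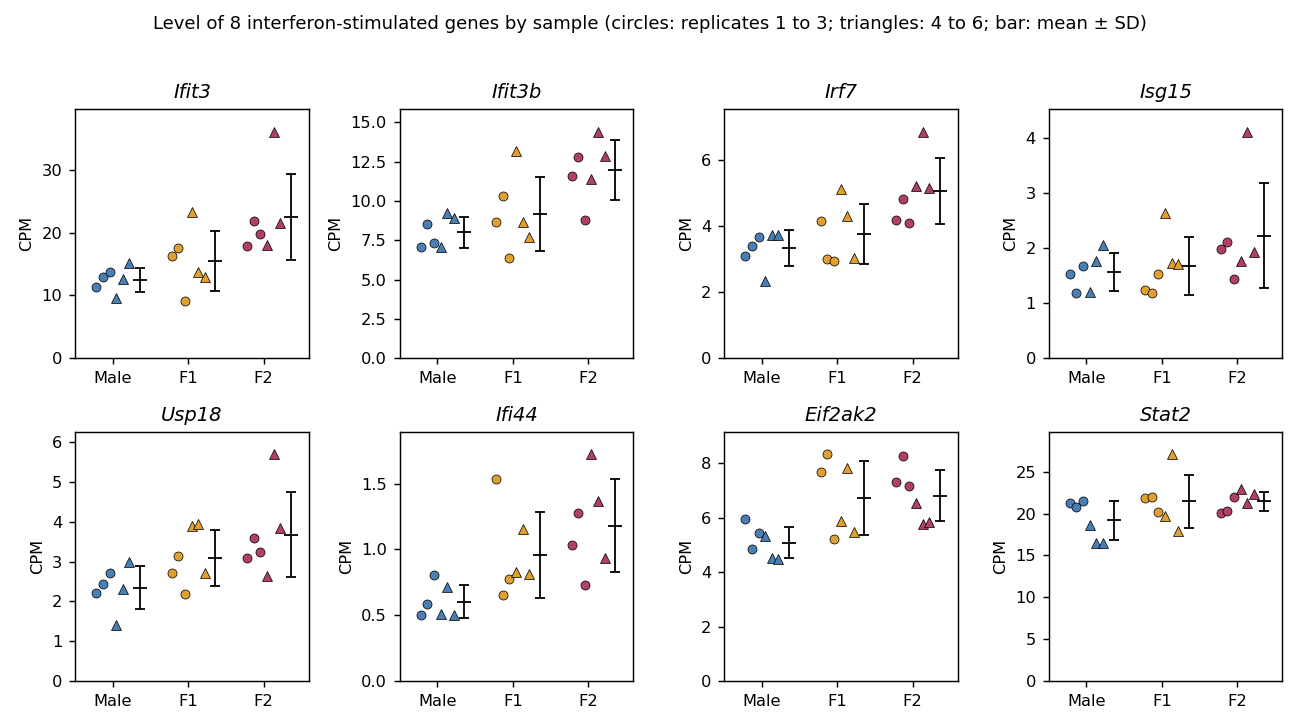
CPM of *Ifit3*, *Ifit3b*, *Irf7*, *Isg15*, *Usp18*, *Ifi44*, *Eif2ak2* and *Stat2* in each of the 18 samples, with the mean ± SD of each group of 6 beside the points, on axes that start at 0. The 6 F2/metestrus samples of *Ifit3* (17.9 to 36.1 CPM) and *Irf7* (4.11 to 6.88 CPM) all sit above the 6 male samples, whereas the groups overlap for the other 6 genes and F1/proestrus overlaps both other groups throughout.

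The IFIT genes encode tetratricopeptide repeat proteins that bind foreign RNA and curb its translation, and 4 of them lie close together on chromosome 19 of GRCm38, the build of all coordinates here. In the main edgeR fits, with no covariate or block and every sample kept, *Ifit3* (chromosome 19, 34583531 to 34588731, plus strand) was the ISG with the smallest adjusted p in any comparison. It measured 9.56 to 15.1 CPM (median 12.7) in males, 9.16 to 23.2 CPM (median 14.96) in F1/proestrus and 17.9 to 36.1 CPM (median 20.7) in F2/metestrus. The male and F2/metestrus ranges did not overlap, and the F1/proestrus range overlapped both. *Ifit3* was 1.81-fold lower in males than in F2/metestrus (log2 fold change -0.85 ± 0.16, SE), with an edgeR quasi-likelihood adjusted p of 0.0559, just outside the 5% threshold. Without F2/metestrus sample 5, which stood at 36.1 CPM, the difference was smaller (-0.67) but the edgeR adjusted p fell to 0.0257. Over all single samples left out in turn, the edgeR adjusted p ran from 0.0257 to 0.171. With the library series as a covariate it was 0.0326.

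*Ifit3b* (chromosome 19, 34607970 to 34613401, plus strand) is a near copy of *Ifit3*. Its level was 7.05 to 9.21 CPM (median 7.93) in males, 6.37 to 13.2 CPM (median 8.65) in F1/proestrus and 8.77 to 14.4 CPM (median 12.2) in F2/metestrus, so that a single F2/metestrus sample fell within the male range. The log2 fold change of males against F2/metestrus was -0.58 ± 0.11 with an edgeR adjusted p of 0.0659, which ran from 0.0146 (without F2/metestrus sample 3) to 0.209 (without F2/metestrus sample 2) when each sample was left out in turn and was 0.0249 with the library series as a covariate. Of all stretches of 50 bases in the *Ifit3* transcripts, 51.2% also occur in *Ifit3b*, and 44.95% of those of *Ifit3b* occur in another gene. Reads were mapped uniquely, so reads from the shared stretches may be missing from both genes, and the separation of both counts is uncertain.

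*Ifit1* (chromosome 19, 34640871 to 34650009, plus strand) measured 4.55 to 6.40 CPM (median 5.56) in males, 5.09 to 9.80 CPM (median 6.73) in F1/proestrus and 5.86 to 11.8 CPM (median 7.63) in F2/metestrus. Males stood at the low end of both female groups, with log2 fold changes of -0.42 ± 0.15 against F1/proestrus and -0.53 ± 0.14 against F2/metestrus and edgeR adjusted p of 0.760 and 0.272. *Ifit2*, the neighbor on the other side of *Ifit3*, showed much less of this pattern, at 16.1 ± 2.00 CPM in males, 16.6 ± 2.08 CPM in F1/proestrus and 17.8 ± 1.71 CPM in F2/metestrus (SD, n = 6 each).

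The oligoadenylate synthetase (OAS) genes make short oligoadenylates that activate the RNA-degrading enzyme RNase L, and the OAS-like genes encode relatives. *Oas2* was found at 0.319 to 0.611 CPM (median 0.450) in males, 0.217 to 0.711 CPM (median 0.404) in F1/proestrus and 0.589 to 0.840 CPM (median 0.788) in F2/metestrus. It was 1.84-fold higher in F2/metestrus than in F1/proestrus (log2 fold change 0.88 ± 0.23, edgeR adjusted p = 1.0), with 20 to 85 counts a library. *Oasl2* gave 5.88 to 8.53 CPM (median 6.70) in males, 7.15 to 17.0 CPM (median 8.21) in F1/proestrus and 8.32 to 12.7 CPM (median 9.77) in F2/metestrus. Its highest sample was F1/proestrus sample 5, and its log2 fold change of males against all 12 females was -0.51 ± 0.15 (edgeR adjusted p = 0.268). *Oasl1* (0.289 ± 0.186 CPM in males, 0.411 ± 0.226 CPM in F1/proestrus and 0.475 ± 0.207 CPM in F2/metestrus) and *Oas1a* (0.633 ± 0.154 CPM, 0.765 ± 0.188 CPM and 0.925 ± 0.215 CPM) had the same order of means, while *Oas1b* differed little. *Oas1a* shares 57.6% of its 50-base stretches with *Oas1g*, so its count is uncertain too.

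Among the signal transducers and transcription factors, the levels of the ISGF3 parts *Stat2* and *Irf9* lay close together in the 3 groups, and those of *Irf7* lay farther apart. *Irf7*, which encodes the factor that amplifies interferon-alpha production, measured 2.33 to 3.75 CPM (median 3.55) in males, 2.96 to 5.13 CPM (median 3.59) in F1/proestrus and 4.11 to 6.88 CPM (median 4.995) in F2/metestrus. Males and F2/metestrus did not overlap, and the log2 fold change between them was -0.60 ± 0.14 (edgeR adjusted p = 0.149). Between the female groups, *Irf7* was 1.34-fold higher in F2/metestrus (0.42 ± 0.16 on the log2 scale, edgeR adjusted p = 1.0). *Stat2* lay at 16.5 to 21.5 CPM (median 19.7) in males, 17.9 to 27.1 CPM (median 21.1) in F1/proestrus and 20.04 to 22.9 CPM (median 21.6) in F2/metestrus, and *Irf9* at 9.33 to 11.7 CPM (median 9.92), 9.57 to 12.8 CPM (median 10.8) and 10.3 to 11.9 CPM (median 11.7) in the same order of groups. *Irf1*, which responds to both kinds of interferon, averaged 6.82 ± 0.825 CPM in males, 7.60 ± 0.694 CPM in F1/proestrus and 10.1 ± 3.72 CPM in F2/metestrus, where sample 5 reached 16.4 CPM.

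ISG15 is a ubiquitin-like protein that is attached to other proteins, HERC6 attaches it in mice, and USP18 removes it and damps signaling at the interferon receptor. *Isg15* measured 1.18 to 2.05 CPM (median 1.60) in males, 1.18 to 2.65 CPM (median 1.62) in F1/proestrus and 1.44 to 4.12 CPM (median 1.96) in F2/metestrus. The F2/metestrus mean rested on sample 5, since the next F2/metestrus sample was at 2.11 CPM, close to the highest male. *Usp18* gave 1.396 to 2.99 CPM (median 2.38) in males, 2.17 to 3.95 CPM (median 2.92) in F1/proestrus and 2.64 to 5.70 CPM (median 3.41) in F2/metestrus, and its log2 fold change of males against F2/metestrus was -0.65 ± 0.19 (edgeR adjusted p = 0.337). *Herc6* averaged 6.59 ± 0.658 CPM, 6.65 ± 0.767 CPM and 7.85 ± 1.79 CPM in males, F1/proestrus and F2/metestrus.

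Of the other antiviral effectors, *Eif2ak2*, which encodes the RNA-activated kinase PKR that halts translation, was lowest in males and close to level between the female groups. It measured 4.48 to 5.95 CPM (median 5.09) in males, 5.21 to 8.34 CPM (median 6.78) in F1/proestrus and 5.78 to 8.27 CPM (median 6.85) in F2/metestrus. Its log2 fold change against all females was -0.41 ± 0.10 (edgeR adjusted p = 0.147). With the library series as a covariate the edgeR adjusted p for males against all females was 0.0466, where 0.539% of all genes were called. *Rsad2*, the gene of viperin, averaged 1.81 ± 0.364 CPM in males, 2.06 ± 0.484 CPM in F1/proestrus and 3.002 ± 1.43 CPM in F2/metestrus, with its highest value in F2/metestrus sample 4 (5.40 CPM). *Bst2*, which encodes the virus-tethering protein tetherin, averaged 3.67 ± 0.815 CPM, 3.85 ± 1.02 CPM and 5.66 ± 2.88 CPM, with 10.97 CPM in F2/metestrus sample 5. *Mx2* and *Trim30a* had close means in the 3 groups.

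The sensors of foreign nucleic acid behaved unequally. *Zbp1*, whose product binds nucleic acid in the Z form and can start necroptosis, measured 0.106 to 0.317 CPM (median 0.204) in males, 0.0812 to 0.828 CPM (median 0.231) in F1/proestrus and 0.251 to 1.57 CPM (median 0.701) in F2/metestrus. It had the widest spread of the 38 tested genes, 19.4 times between its lowest and highest sample, at 8 to 124 counts a library. The log2 fold change of males against F2/metestrus was -1.98 ± 0.43 (edgeR adjusted p = 0.127) and that of F2/metestrus against F1/proestrus 1.45 ± 0.54 (edgeR adjusted p = 1.0). *Ddx58* and *Ifih1*, which encode the RNA sensors RIG-I and MDA5, had log2 fold changes of -0.17 ± 0.12 and -0.31 ± 0.14 in males against F2/metestrus. With each sample left out in turn they ran from -0.24 to -0.10 and from -0.37 to -0.20. In the first and second library series, *Ddx58* was at -0.33 and -0.0025 and *Ifih1* at -0.16 and -0.46. *Dhx58*, the gene of their relative LGP2, averaged 2.37 ± 0.381 CPM in males, 2.27 ± 0.414 CPM in F1/proestrus and 2.43 ± 0.278 CPM in F2/metestrus.

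*Parp9* and *Dtx3l* encode partners in 1 ubiquitin ligase complex and overlap on opposite strands of chromosome 16, so that reads of one may have been counted for the other if strand was not used. Their log2 fold changes in males against F2/metestrus were -0.33 ± 0.11 and -0.19 ± 0.11, and that of *Parp14* was -0.46 ± 0.22. In the first and second library series, *Parp9* was at -0.06 and -0.62, *Dtx3l* at -0.08 and -0.32 and *Parp14* at -0.25 and -0.73. With each sample left out in turn, *Dtx3l* ran from -0.24 to -0.12. Of the remaining interferon-induced genes, *Ifi44* had the largest difference between males and all females after *Zbp1*. It measured 0.504 to 0.802 CPM (median 0.545) in males, 0.657 to 1.53 CPM (median 0.821) in F1/proestrus and 0.731 to 1.72 CPM (median 1.16) in F2/metestrus. Against all females it was 1.77-fold lower in males (log2 fold change -0.82 ± 0.20, edgeR adjusted p = 0.137). *Fam26f*, which encodes a membrane protein of the calcium homeostasis modulator family, lay at 0.0539 to 0.244 CPM (median 0.179) in males, 0.0540 to 0.152 CPM (median 0.110) in F1/proestrus and 0.152 to 1.03 CPM (median 0.289) in F2/metestrus. Between the female groups it had the largest log2 fold change of the list, higher in F2/metestrus (1.97 ± 0.47, edgeR adjusted p = 1.0), at 6 to 81 counts a library. *Rtp4* had a log2 fold change of -0.34 ± 0.16 in males against F2/metestrus, which ran from -0.40 to -0.20 with each sample left out in turn. *Xaf1*, which encodes an inducer of apoptosis, averaged 6.98 ± 0.835 CPM, 6.16 ± 0.984 CPM and 7.03 ± 1.33 CPM in males, F1/proestrus and F2/metestrus, and *Ifi35* 7.21 ± 1.02 CPM, 7.39 ± 0.732 CPM and 7.42 ± 1.45 CPM.

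**Figure D2:**
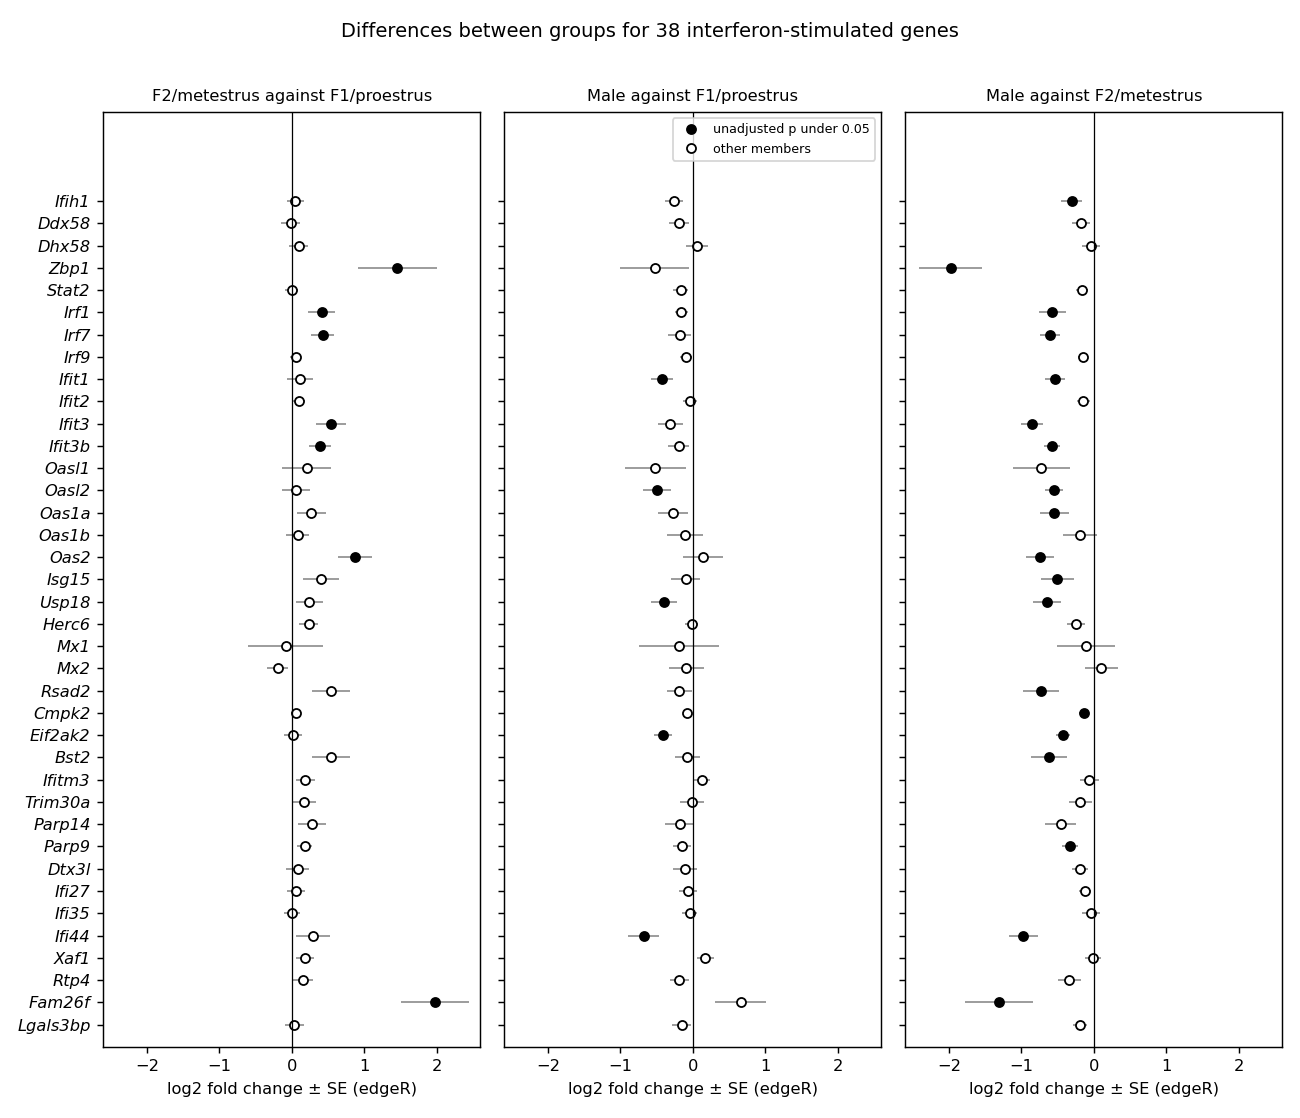
log2 fold change ± SE (edgeR quasi-likelihood fit) of the 38 tested genes, 1 row a gene in the order of their roles, for F2/metestrus against F1/proestrus (left), males against F1/proestrus (middle) and males against F2/metestrus (right). Filled points have an unadjusted p under 0.05 (7, 5 and 19 genes), and no gene had an adjusted p under 0.05. The comparisons share samples pairwise.

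Between the female groups, no ISG passed the 5% false discovery rate (FDR), and neither did any of the 24042 genes tested by edgeR (0.0% called). DESeq2 called 2 genes (0.00453%), neither of them on the list. At an unadjusted p under 0.05, edgeR gave 7 of 38 ISGs, all higher in F2/metestrus (*Fam26f*, *Oas2*, *Irf7*, *Zbp1*, *Ifit3*, *Ifit3b* and *Irf1*), beside 0.944% of all genes higher at that level. The log2 fold change was above 0 for 34 of 38 ISGs, beside 49.8% of all genes, and its median was 0.18, against -0.00038 over all genes. Without F2/metestrus sample 5, 2 of 38 ISGs were higher at an unadjusted p under 0.05, beside 1.39% of all genes, and the median was 0.10.

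The comparison of males with F2/metestrus gave the most ISGs at an unadjusted p under 0.05. edgeR called 22 of 24048 genes (0.0915%) and none of the 38 ISGs. At that level 19 ISGs were lower and none was higher in males, beside 3.87% and 4.62% of all genes. The log2 fold change was below 0 for 37 of 38 ISGs, *Mx2* being the exception with a sign that turned under limma voom and without male sample 2, beside 52.1% of all genes, and the median was -0.34, against -0.0074 over all genes. The male and F2/metestrus samples did not overlap for *Ifit3* and *Irf7*, beside 0.32% of all genes that were lower without overlap. DESeq2 called 9 of the 38 ISGs, all lower in males (*Ifit3*, *Ifit3b*, *Zbp1*, *Ifi44*, *Oasl2*, *Irf7*, *Eif2ak2*, *Ifit1* and *Oas2*), where it called 0.355% of all genes. With the library series as a covariate, edgeR called *Ifit3b*, *Ifit3* and *Eif2ak2*, with 0.25% of all genes called.

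Between males and F1/proestrus, edgeR called 13 of 24287 genes (0.0535%) and no ISG, and DESeq2 called 61 genes (0.139%) and no ISG. Of the 38 ISGs, 5 were lower in males at an unadjusted p under 0.05 (*Eif2ak2*, *Ifi44*, *Ifit1*, *Oasl2* and *Usp18*), beside 3.12% of all genes. The log2 fold change was below 0 for 33 of 38, beside 52.5% of all genes, with a median of -0.16. That median was -0.07 without F1/proestrus sample 4 (26 of 38 below 0), -0.10 without F1/proestrus sample 5 (30 of 38) and -0.04 in the first library series alone (23 of 38). Against all 12 females, edgeR called 49 of 24862 genes (0.197%) and no ISG, and 13 of 38 were lower in males at an unadjusted p under 0.05, beside 3.87% of all genes. The median there was -0.26, and DESeq2 called *Ifi44* and *Eif2ak2*, beside 0.362% of all genes. The male samples enter 3 of these comparisons and the F2/metestrus samples 3, so the comparisons do not repeat one another independently.

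By group means, 30 of the 39 genes were highest in F2/metestrus, intermediate in F1/proestrus and lowest in males. A further 6 had F2/metestrus highest and F1/proestrus lowest, 2 had F1/proestrus highest and males lowest, and 1 (*Mx2*) had F1/proestrus highest and F2/metestrus lowest. The lowest of the 18 samples was a male for 28 genes, an F1/proestrus female for 11 and an F2/metestrus female for none. The highest was an F2/metestrus female for 25 genes, and for 20 of these it was sample 5. F1/proestrus sample 5 was highest for 7 genes. For these orders and extremes the shares over all genes were not counted. The list was also chosen knowing that such genes stood higher in some F2/metestrus samples.

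**Figure D3:**
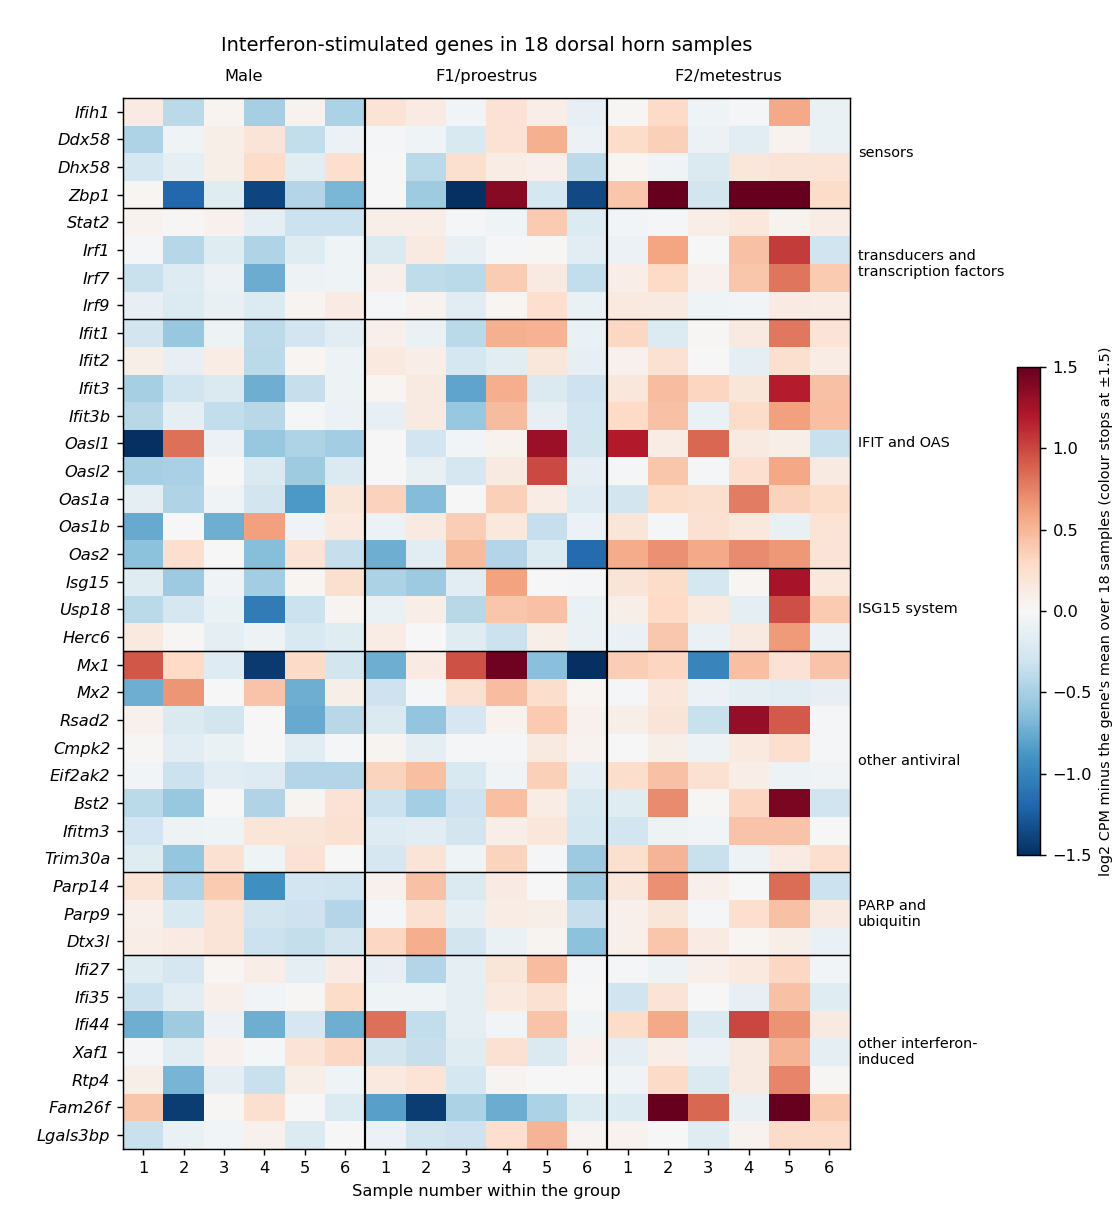
log2 CPM of the 38 tested genes (rows, grouped by role) in the 18 samples (columns, by group and replicate number), each gene centered on its mean over the samples. Red is above and blue below the gene's mean, and the color stops at ±1.5. F2/metestrus sample 5 is above the mean for 35 of the 38 genes, while male sample 2 is above it for 7 and F1/proestrus samples 3 and 6 for 6 each.

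The mean of the centered log2 CPM over the 38 genes summarizes each sample. It was -0.30 to -0.05 in males, -0.26 to 0.20 in F1/proestrus and 0.0038 to 0.58 in F2/metestrus. F2/metestrus samples 5, 2 and 4 were highest at 0.58, 0.34 and 0.25, then came F1/proestrus samples 4 and 5 at 0.20 and 0.15, and the other 3 F2/metestrus samples lay between 0.0038 and 0.10. All 6 males and the remaining 4 F1/proestrus samples were below 0. Both female groups thus held samples at quite different levels, and F1/proestrus sample 6, at -0.26, was below 5 of the 6 males. The median SD of log2 CPM within a group was 0.316 in F1/proestrus, 0.270 in F2/metestrus and 0.255 in males, against 0.196, 0.185 and 0.211 over all genes.

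**Figure D4:**
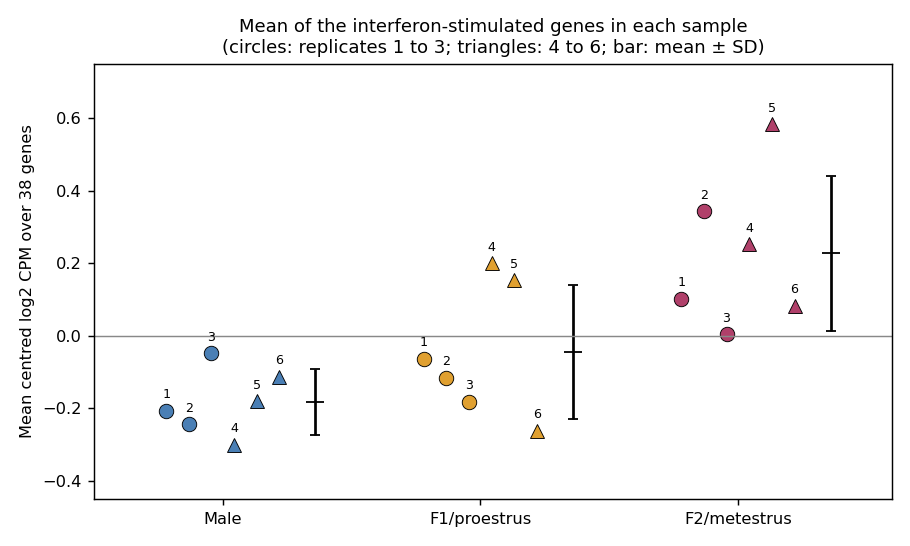
Mean centered log2 CPM over the 38 tested genes in each sample, numbered by replicate, with the mean ± SD of each group of 6. Circles are replicates 1 to 3 and triangles replicates 4 to 6, which belong to the 2 series of library numbers. F2/metestrus samples run from 0.0038 to 0.58, males from -0.30 to -0.05, and F1/proestrus samples overlap both.

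The genes varied together across the 18 samples. The Pearson correlation of a gene with the mean of the other 37 was 0.61 at the median and over 0.5 for 26 of 38 genes, highest for *Irf7* (0.90), *Zbp1* (0.88), *Bst2* (0.85) and *Ifit3* (0.85) and lowest for *Oas1b* (-0.085), *Mx2* (-0.042) and *Mx1* (0.23). Over all 24862 genes tested, the correlation with the mean of the list was 0.0099 at the median and over 0.5 for 2.96%. Leaving out F2/metestrus samples 5 and 2, the farthest from the median, lowered the median for the list to 0.45. These are descriptions over samples that share the group differences and the choice of the list. Within the first and the second library series, the median log2 fold change was 0.18 and 0.20 for F2/metestrus against F1/proestrus, -0.04 and -0.26 for males against F1/proestrus, and -0.28 and -0.49 for males against F2/metestrus. A series-by-group term gave no ISG an edgeR adjusted p below 0.964, but with 3 samples a group in each series it cannot show that the series agree. Unadjusted, its edgeR p was under 0.05 for *Ddx58* and *Oasl1* between the female groups. In 1 or more male comparisons it was so for *Stat2*, *Parp9*, *Rsad2*, *Oas1b* and *Lgals3bp*. *Rsad2* in males against F2/metestrus was at -0.14 and -1.20 in the first and second series. The share of all genes at that level was not counted.

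The promoters were read for the ISRE core, since the genes varied together. RefSeq promoters (GRCm38.p6, 250 bases before to 50 after the start site) were matched for 28 of the 39 genes. The ISRE core, searched as GAAA, any 2 bases and GAAA again (TTTC, any 2 bases and TTTC on the other strand), was present in 15 of them (53.6%), against 3.99% of the 27025 genes with a promoter in the table. The core of the interferon-gamma-activated site, TTCNNNGAA, which reads the same on both strands, was present in 7 (25.0%), against 9.55%. Matches may overlap, as the 3 of *Isg15* do, and in *Bst2* and *Ifitm3* an ISRE match overlaps a match to the other core. The 8 promoters printed here are those with an ISRE match among the genes whose sample values are given and that were counted in every sample, 5′ to 3′ on the gene's strand, with the ISRE matches in capitals.
Ifit1 (chr19:34640639-34640938, plus strand): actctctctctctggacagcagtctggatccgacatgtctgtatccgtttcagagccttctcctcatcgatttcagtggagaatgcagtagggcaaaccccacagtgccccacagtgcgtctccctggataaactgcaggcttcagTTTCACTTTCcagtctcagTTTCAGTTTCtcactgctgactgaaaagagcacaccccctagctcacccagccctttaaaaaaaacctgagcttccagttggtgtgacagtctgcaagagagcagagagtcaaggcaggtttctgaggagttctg
Ifit3 (chr19:34583279-34583578, plus strand): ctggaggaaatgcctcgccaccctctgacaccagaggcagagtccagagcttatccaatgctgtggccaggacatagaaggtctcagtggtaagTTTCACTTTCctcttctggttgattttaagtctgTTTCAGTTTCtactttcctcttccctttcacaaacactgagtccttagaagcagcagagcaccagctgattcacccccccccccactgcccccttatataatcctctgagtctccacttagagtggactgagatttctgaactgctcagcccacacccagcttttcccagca
Ifit3b (chr19:34607707-34608006, plus strand): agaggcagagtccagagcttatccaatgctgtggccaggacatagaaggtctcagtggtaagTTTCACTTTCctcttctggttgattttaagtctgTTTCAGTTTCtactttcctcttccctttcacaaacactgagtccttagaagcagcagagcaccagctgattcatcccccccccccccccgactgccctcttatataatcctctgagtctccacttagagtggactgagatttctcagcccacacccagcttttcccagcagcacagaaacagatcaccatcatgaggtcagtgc
Isg15 (chr4:156200769-156201068, minus strand): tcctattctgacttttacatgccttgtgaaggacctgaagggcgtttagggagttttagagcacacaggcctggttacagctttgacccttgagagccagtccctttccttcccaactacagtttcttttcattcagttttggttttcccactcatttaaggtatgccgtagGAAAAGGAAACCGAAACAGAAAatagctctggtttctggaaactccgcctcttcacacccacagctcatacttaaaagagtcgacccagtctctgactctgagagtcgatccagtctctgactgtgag
Stat2 (chr10:128270248-128270547, plus strand): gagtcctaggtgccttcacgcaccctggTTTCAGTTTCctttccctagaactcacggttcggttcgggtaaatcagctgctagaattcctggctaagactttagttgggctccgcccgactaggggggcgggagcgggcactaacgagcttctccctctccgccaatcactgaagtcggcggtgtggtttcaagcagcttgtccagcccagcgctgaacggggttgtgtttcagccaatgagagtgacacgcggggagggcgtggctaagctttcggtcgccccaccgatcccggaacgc
Eif2ak2 (chr17:78882523-78882822, minus strand): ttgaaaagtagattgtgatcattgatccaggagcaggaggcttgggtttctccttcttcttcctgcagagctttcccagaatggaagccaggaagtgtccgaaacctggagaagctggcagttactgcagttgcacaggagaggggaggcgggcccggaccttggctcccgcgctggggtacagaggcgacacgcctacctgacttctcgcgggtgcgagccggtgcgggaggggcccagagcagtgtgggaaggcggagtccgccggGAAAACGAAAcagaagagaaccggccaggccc
Ifitm3 (chr7:141010695-141010994, minus strand): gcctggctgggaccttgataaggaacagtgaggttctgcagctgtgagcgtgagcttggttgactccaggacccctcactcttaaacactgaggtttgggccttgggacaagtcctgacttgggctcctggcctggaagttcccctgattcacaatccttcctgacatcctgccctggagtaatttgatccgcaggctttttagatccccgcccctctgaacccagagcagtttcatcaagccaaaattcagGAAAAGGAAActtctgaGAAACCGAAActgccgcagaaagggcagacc
Fam26f (chr10:34127923-34128222, minus strand): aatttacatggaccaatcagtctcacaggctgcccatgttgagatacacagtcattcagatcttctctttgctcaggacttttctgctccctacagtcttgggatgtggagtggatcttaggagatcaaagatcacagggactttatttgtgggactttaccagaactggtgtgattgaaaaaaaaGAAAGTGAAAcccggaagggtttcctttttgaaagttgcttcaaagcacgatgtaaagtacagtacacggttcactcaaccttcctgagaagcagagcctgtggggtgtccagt
*Ifit3* and *Ifit3b* carried the same pair of matches in the same order, starting 156 and 122 bases before the start site in *Ifit3* and 188 and 154 bases before it in *Ifit3b*. *Ifit1* had its matches 104 and 85 bases before the start, *Isg15* 78 to 66 before and *Fam26f* 64 before. *Stat2*, whose level differed little between groups, had 1 match 222 bases before the start, and in *Eif2ak2* and *Ifitm3* the matches lay after it. *Irf7*, *Ifi44* and *Oasl2* hold no ISRE core in this window. A match describes letters and does not show that a factor binds.

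The genes of the interferons themselves were almost uncounted. Of 21 interferon genes, none passed the filter on low counts, 10 had no read in any of the 18 samples and 18 had at most 3 counts in every sample. *Ifnb1*, the gene of interferon-beta, had 12 reads in all, spread over 4 samples, and *Ifng* had 6 in 3 samples. The most counted was *Ifnz*, with 51 reads in all. With so few reads, differences in interferon transcripts between the groups were not tested.

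The receptor genes were well expressed and nearly level. *Ifnar1* measured 40.4 to 45.4 CPM (median 42.2) in males, 39.2 to 48.5 CPM (median 44.5) in F1/proestrus and 40.5 to 47.8 CPM (median 44.6) in F2/metestrus. *Ifnar2* lay at 22.6 to 26.3 CPM (median 24.1), 21.6 to 24.8 CPM (median 24.1) and 23.6 to 27.4 CPM (median 24.8) in the same order, and *Ifngr1*, for the interferon-gamma receptor, at 23.8 to 31.7 CPM (median 29.9), 23.7 to 30.9 CPM (median 26.9) and 25.2 to 31.0 CPM (median 27.7). Of 16 receptor and JAK-STAT genes, none was called in any comparison by edgeR, and DESeq2 called 1 in males against F2/metestrus, beside 0.355% of all genes. At an unadjusted p under 0.05 there was 1 in F2/metestrus against F1/proestrus, 1 in males against F2/metestrus, 1 in males against all females and none in males against F1/proestrus, where 2.48%, 8.48%, 9.72% and 5.78% of all genes passed that level. Of 21 genes of nucleic acid sensing and interferon induction, 3 were lower in males than in F2/metestrus at an unadjusted p under 0.05 (beside 3.87% of all genes), *Tlr3* (-0.19 ± 0.07), the kinase gene *Tbk1* (-0.15 ± 0.06) and *Samhd1* (-0.24 ± 0.11), and the list's median log2 fold change was -0.04. Neither edgeR nor DESeq2 called a gene of this list in any comparison.

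Among 65 further ISGs outside the list, 59 were tested in both comparisons with F2/metestrus and none was called by edgeR. DESeq2 called 5 in males against F2/metestrus, among them *Cd274*, *Gm4951*, *Ifi47* and *Slfn5*, and none between the female groups, beside 0.355% and 0.00453% of all genes. At an unadjusted p under 0.05, 9 were higher in F2/metestrus than in F1/proestrus, beside 0.944% of all genes. In males against F2/metestrus 21 were lower and 1 was higher at that level, beside 3.87% and 4.62% of all genes. Their median log2 fold changes were 0.09 and -0.20. *Ifi47*, an interferon-inducible GTPase gene, measured 0.926 to 2.30 CPM (median 1.34) in males, 1.34 to 2.57 CPM (median 1.55) in F1/proestrus and 1.86 to 8.17 CPM (median 3.73) in F2/metestrus (log2 fold change of males against F2/metestrus -1.58 ± 0.37, edgeR adjusted p = 0.177). *Cd274*, which encodes the T cell inhibitory ligand PD-L1, had a log2 fold change of -0.74 ± 0.18 in that comparison. *Mndal* and *Slfn5* were lower in males than in all females by 0.84 and 0.46 on the log2 scale, with edgeR adjusted p of 0.147 and 0.229, and DESeq2 called *Mndal* alone of the list in that comparison, beside 0.362% of all genes.

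The guanylate-binding protein (GBP) and immunity-related GTPase (IRG) genes, which are driven strongly by interferon-gamma, had larger differences in the same directions. Of 16 tested, 15 were higher in F2/metestrus than in F1/proestrus at an unadjusted p under 0.05, beside 0.944% of all genes, with a median log2 fold change of 1.05 where the 38 ISGs had 0.18. In males against F2/metestrus all 16 had a log2 fold change below 0 and 15 had an unadjusted p under 0.05, beside 3.87% of all genes lower at that level, with a median of -1.39 against -0.34. In males against F1/proestrus, 15 genes of the list passed the filter on low counts. The counts and medians with F2/metestrus thus take in a gene that passed only through that group. *Gbp10* averaged 0.0838 CPM in males, 0.0860 CPM in F1/proestrus and 0.934 CPM in F2/metestrus. None was called by edgeR at the 5% FDR, *Gbp9* and *Gbp5* coming closest with log2 fold changes of -0.84 ± 0.15 and -1.31 ± 0.24 and adjusted p of 0.0559 and 0.0559. With each sample left out in turn, these edgeR adjusted p ran from 0.0338 to 0.154 and from 0.0191 to 0.178. The F2/metestrus samples were spread unequally, *Gbp9* at 3.14 to 5.44 CPM (median 3.86) but *Gbp2* at 5.15 to 45.6 CPM (median 10.1). DESeq2 called 9 in males against F2/metestrus and 1, *Gbp10*, in F2/metestrus against F1/proestrus, beside 0.355% and 0.00453% of all genes, and it called *Gbp9* in males against all females, beside 0.362%. Several of these genes have close copies, so their single counts are uncertain, and the difference between the lists was not tested.

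**Figure D5:**
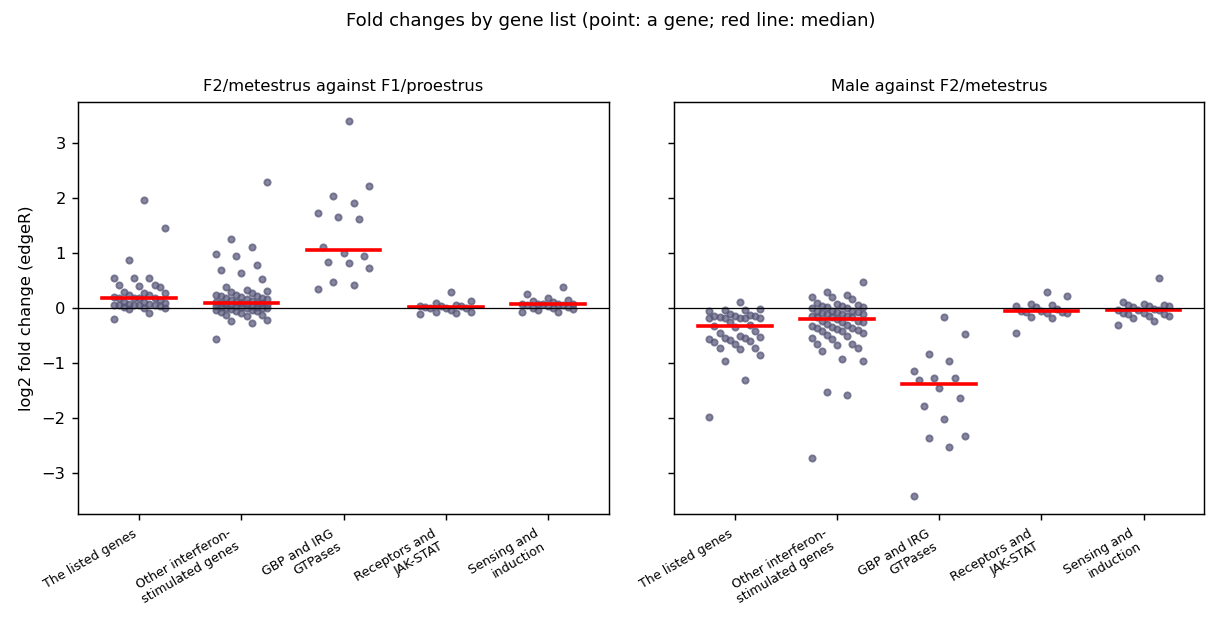
log2 fold change (edgeR) of each tested gene in 5 lists, for F2/metestrus against F1/proestrus (left) and males against F2/metestrus (right), with the list's median as a red line. The 16 GBP and IRG genes lie farthest from 0 (medians 1.05 and -1.39), the 38 listed ISGs have medians of 0.18 and -0.34, and the receptor and sensing lists lie near 0.

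Outside the list, genes among the 10 most like the mean of the 38 ISGs over the 18 samples, among genes with a mean of at least 1 CPM, were *Ifi47* (Pearson r = 0.93), *Gbp3* (0.93), *Gbp6* (0.90), *Gbp7* (0.90), *Gbp2* (0.89), *Iigp1* (0.88), *Gm43302* (0.87), *Cd274* (0.86) and *Gm28177* (0.86). All 10 had their highest level in F2/metestrus sample 5. Without F2/metestrus samples 5 and 2, the correlations of the 10 were 0.68 to 0.86.

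Marker genes of other cells were summed beside these results. T and NK cell markers summed to 1.95 to 3.25 CPM in males, 2.38 to 3.04 CPM in F1/proestrus and 2.52 to 3.70 CPM in F2/metestrus. All 9 had more than 3 counts in some sample, but only 3 or 4 of the 9 passed the filter on low counts in a comparison. The mean log2 CPM of the 9, which includes those near the floor, followed the mean of the ISGs over the 18 samples with r = 0.66. The highest sum was in F2/metestrus sample 4. Microglial markers summed to 388 to 428 CPM in males, 345 to 396 CPM in F1/proestrus and 356 to 402 CPM in F2/metestrus (r = 0.010), and monocyte and border macrophage markers to 23.2 to 36.1, 15.9 to 38 and 17.3 to 26.7 CPM (r = 0.036). Of the plasmacytoid dendritic cell markers *Klk1* had at most 3 counts in every sample, and the other 5 were detected (r = 0.16). Neutrophil markers summed to 5.69 to 32.8 CPM in males, 2.10 to 11 CPM in F1/proestrus and 5.99 to 10.9 CPM in F2/metestrus (r = -0.20). Of 8 neutrophil markers tested, 8, 6 and 8 were higher in males than in F1/proestrus, F2/metestrus and all females at an unadjusted p under 0.05, beside 2.66%, 4.62% and 5.84% of all genes, and edgeR called 1 against all females (*Mpo*, adjusted p = 0.0161). In F2/metestrus against F1/proestrus all 8 had a log2 fold change above 0 (median 0.55), beside 49.8% of all genes, and 0 passed that level. Of 8 dorsal horn neuron markers (r = -0.35), 0, 1 and 3 were higher in males in the same 3 comparisons at that level, beside the same shares. Between the female groups, 7 of these 8 were below 0 in F2/metestrus against F1/proestrus (median -0.05).

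Motor neuron markers had medians in the same direction as the ISGs. They summed to 12.1 to 62.5 CPM (median 35.6) in males, 17.4 to 70.5 CPM (median 51.8) in F1/proestrus and 53.3 to 67.5 CPM (median 58.2) in F2/metestrus (r = 0.45). All 4 had a log2 fold change below 0 in males against F1/proestrus, F2/metestrus and all females, with medians of -0.47, -0.69 and -0.59, and the median was 0.38 in F2/metestrus against F1/proestrus. At an unadjusted p under 0.05, 2 of the 4 were lower in males than in F2/metestrus, beside 3.87% of all genes. Schwann cell markers, which belong to peripheral nerve, also stood higher in males. They summed to 1829 to 4507 CPM in males, 1221 to 2599 CPM in F1/proestrus and 1278 to 1859 CPM in F2/metestrus (r = -0.21), highest in male sample 5. All 5 were higher in males at an unadjusted p under 0.05 in each of the 3 male comparisons (against F1/proestrus, F2/metestrus and all females), beside 2.66%, 4.62% and 5.84% of all genes, with median log2 fold changes of 0.59, 0.68 and 0.67. edgeR called 1 of them, *Ncmap*, against F2/metestrus (adjusted p = 0.0481) and against all females (adjusted p = 0.00654), where it called 0.0915% and 0.197% of all genes. *Mpo* and *Ncmap* are named because they were called and were chosen after their values were seen. The part of these cells in the differences among ISGs was not tested.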

How the data were processed

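RNA-seq libraries were made from the ipsilateral DHSC of 18 mouse samples. The authors mapped reads uniquely to mm10 with Subread and deposited raw counts of exonic reads per gene from featureCounts. The submitters' processing notes name bcl2fastq 2.20.0.422 and Subread 2.0.3. The library kits named in the methods and in the labels differ, and use of strand in counting is not given in the sources used here. A deposited table of the authors' own comparisons (mean, fold change, SE, statistic and p-values from DESeq2) was used for gene symbols only. The 39 members and all gene lists were chosen with earlier results of these data known. Counts were tested with edgeR 4.0.16 (R 4.3.3): filterByExpr (minimum count 10, minimum total 15), TMM, quasi-likelihood test, Benjamini-Hochberg adjustment over all genes tested, FDR 5%. DESeq2 1.42.0 and limma 3.58.1 (voom) were alternatives, and the fits were tested on simulated data. DESeq2 was run without that filter, on 43914 to 45823 genes and all 39 members. Its shares of all genes therefore have larger denominators than those of edgeR. CPM used TMM library sizes, and log2 CPM a prior count of 2. GENCODE (GRCm38) gave gene positions and exon lengths and matched 55480 of 55573 gene IDs. Sample values are given for the 4 members with the smallest p in F2/metestrus against F1/proestrus and in males against all females, the 4 highest and 2 lowest per kilobase, and *Stat2*, *Irf7*, *Irf9*, *Usp18*, *Isg15*, *Ifit1*, *Ifit3* and *Ifit3b*. Outside the members, the 3 genes with the smallest p of a list and the 10 genes most correlated with the members' mean could be named. 1 gene outside the members is not reported here.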

Additional observations from a re-analysis of the deposited data

Results flagged for a closer look

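In a group of 6, a sample was picked out where its gap to the nearest other sample, as a share of the group's whole range, passed Dixon's critical value for outliers. Chance picks out about 1 in 20 groups. Of 117 groups tested (39 genes in 3 groups), 11 had such a sample (9.4%). In F2/metestrus sample 5, *Ifit3* was at 36.1 CPM (next 21.8), *Isg15* at 4.12 CPM (next 2.11) and *Xaf1* at 9.49 CPM (next 7.27). F1/proestrus sample 5 stood apart for *Oasl1* at 0.868 CPM (next 0.359) and *Oasl2* at 17.0 CPM (next 9.37). F1/proestrus sample 4 stood apart for *Isg15* at 2.65 CPM (next 1.73) and *Zbp1* at 0.828 CPM (next 0.307). The other high samples were male sample 3 for *Oas3* at 0.234 CPM and F2/metestrus sample 2 for *Mx2* at 1.02 CPM. The low ones were F2/metestrus sample 6 for *Oas2* at 0.589 CPM and F2/metestrus sample 3 for *Mx1* at 0.0436 CPM.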

How the results depend on the processing

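Of the log2 fold changes at an unadjusted p under 0.05, none changed sign under any alternative. Over all 38 ISGs tested, 17 did so under at least 1 alternative for F2/metestrus against F1/proestrus, and 18, 8 and 8 for males against F1/proestrus, F2/metestrus and all females (16, 16, 4 and 7 with 1 library series alone). For males against F2/metestrus, the number of ISGs called at the 5% FDR was 0 with edgeR, 9 with DESeq2, 2 (*Ifit3* and *Ifit3b*) without a filter on low counts, 3 with the library series as a covariate and 2 (*Ifit3* and *Ifit3b*) with a replicate block. DESeq2 and the fit without a filter took in all 39 ISGs and more genes, and the other fits 38. The share of all genes called was 0.0915%, 0.355%, 0.1%, 0.25% and 0.187% in the same order. Against all females the number of ISGs called was 0 with edgeR, 2 with DESeq2 and 1 with the library series, beside 0.197%, 0.362% and 0.539% of all genes. At an unadjusted p under 0.05, the ISGs numbered 7 for F2/metestrus against F1/proestrus but 12 with a replicate block and 2 in the second series alone, beside 2.48%, 3.72% and 2.72% of all genes. For males against F1/proestrus they numbered 5, and 1 in the first series, 8 in the second and 2 with limma voom, beside 5.78%, 5.87%, 6.37% and 5.37% of all genes. In the first series alone they numbered 12 for males against F2/metestrus (19 in all samples) and 6 against all females (13 in all samples), beside 6.71% (8.48%) and 8.12% (9.72%) of all genes.

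Over all genes, DESeq2 called 2 for F2/metestrus against F1/proestrus, 61 for males against F1/proestrus, 156 against F2/metestrus and 166 against all females, where edgeR called 0, 13, 22 and 49. Requiring 10 counts in every sample gave 3, 10 and 31 for the 3 male comparisons, the first series alone 8, 10 and 16, and the second alone 6, 13 and 13. Against F2/metestrus, edgeR called 44 without the filter, 45 with a replicate block and 60 with the library series, and against all females 148 with a replicate block and 134 with the library series.

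Leaving out each sample in turn, the genes called ranged over 0 to 0, 9 to 16, 17 to 31 and 25 to 77 for F2/metestrus against F1/proestrus and males against F1/proestrus, F2/metestrus and all females. The ISGs at an unadjusted p under 0.05 ranged over 2 to 10, 4 to 6, 14 to 23 and 11 to 17. Beside them, 528 to 775, 974 to 2009, 1428 to 2876 and 1554 to 3403 genes passed that level, of 24157 to 25160 tested. The ISGs called at the 5% FDR ranged over 0 to 0, 0 to 0, 0 to 1 and 0 to 0. The median log2 fold change of the 38 ISGs ranged over 0.10 to 0.21, -0.17 to -0.07, -0.39 to -0.23 and -0.32 to -0.19. Same-numbered samples deviated together (r over 0.1) in 2 to 4 of 6 pairs, and 1 or 2 of 6 samples correlated best with their own number. These values cannot settle whether the numbers pair the samples. *Mx1*, *Oas3*, *Zbp1* and *Fam26f* rest on few counts, and depth limits what they can show.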
